A study of Mus musculus with 16 samples.

Results

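The subject is 36 mouse genes of mitosis, the division of the nucleus. They were listed by name and comprise the mitotic cyclins and Cdk1, spindle and motor genes, kinetochore and checkpoint genes, the chromosomal passenger complex, the anaphase machinery and cytokinesis genes. A probe named through its RefSeq transcript was found for 35 of the 36, and the brightest tested probe stood for each gene. The kinetochore gene Cenpf had no named probe. All 35 genes with a probe passed the filter on dim probes, among 12298 genes tested in all.

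Expression was measured on 16 Agilent arrays with 2 colours, 1 array per sample. On 8 arrays, called TIC, the Cy5 channel held RNA of a density-gradient fraction enriched in inflammatory cells of Hepa1-6 tumours, and on the other 8, called Blood, it held blood RNA of tumour-bearing mice. Hepa1-6 is a mouse hepatoma cell line, of which 10000000 cells had been placed under the skin 10 days before sampling. The treatment text names athymic C57Bl/6 mice and the strain field C57Bl/6 only; all animals were female and no ages are given. The Cy3 channel of every array held blood RNA labelled as that of an untreated female C57Bl/6 mouse, which is the reference. Dyes were not swapped. Tumour fractions and blood were extracted with different kits, and TIC arrays filled slides 3 and 4 while Blood arrays filled slides 1 and 2, so tissue, kit and slide cannot be told apart. Both groups carry sample numbers 889, 890, 891, 893, 894, 896, 897 and 898.

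Mitosis genes are transcribed in dividing cells, with their RNA and protein rising late in the cell cycle and the proteins being destroyed as cells leave mitosis. Cyclins activate Cdk1 to start mitosis, kinases and motors build the spindle, kinetochores attach chromosomes to it, and a checkpoint holds back the anaphase-promoting complex until all are attached. Mature white cells of blood seldom divide. Mouse blood RNA is rich in transcripts of reticulocytes, young red cells that have lost their nucleus but still hold RNA made by their dividing precursors.

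Many promoters of this class carry a CCAAT box and a cell cycle gene homology region (CHR), the element bound by the DREAM and B-Myb complexes. RefSeq promoter windows on GRCm38.p6, from 250 bases before to 50 after the start site, were matched to 32 of the 36 genes in 34 windows. A CHR motif, taken as TTTGAA or TTTAAA on either strand, was in 85.3% of their windows, against 27.6% of all 32851 windows. The CCAAT motif, on either strand, was in 76.5% of their windows, against 37.4% of all windows. Both motifs were in 73.5% of their windows and in 10.7% of all windows. The GATA motif, taken as AGATAA or TGATAA on either strand and searched because GATA factors act in red cell precursors, was in 14.7% of their windows and 18.6% of all windows. No motif's letters contain another's, and a match is a description of the letters only. The 5 stretches that follow are the 130 bases before the start site of 3 genes with a lower ratio in TIC and 2 with a higher ratio, shown to set the letters beside the different ratios; capitals mark CHR and CCAAT motifs. Nusap1, on the plus strand at chr2:119618168-119618297, had neither motif in its whole window.
Nusap1: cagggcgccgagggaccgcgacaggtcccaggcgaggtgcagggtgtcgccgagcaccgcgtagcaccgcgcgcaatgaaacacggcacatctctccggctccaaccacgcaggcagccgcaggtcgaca
Ube2c, on the plus strand at chr2:164769799-164769928, had 1 CHR motif and 2 CCAAT motifs in the stretch shown.
Ube2c: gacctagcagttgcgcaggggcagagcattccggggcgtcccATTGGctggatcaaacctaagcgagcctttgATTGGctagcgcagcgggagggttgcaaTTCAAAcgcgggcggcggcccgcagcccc
Pttg1, on the minus strand at chr11:43425982-43426111, had neither motif in its whole window.
Pttg1: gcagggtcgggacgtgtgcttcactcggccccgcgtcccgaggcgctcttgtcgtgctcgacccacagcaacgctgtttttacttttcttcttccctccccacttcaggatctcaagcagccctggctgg
Cdk1, on the minus strand at chr10:69352913-69353042, had 2 CHR motifs and 2 CCAAT motifs in the stretch shown.
Cdk1: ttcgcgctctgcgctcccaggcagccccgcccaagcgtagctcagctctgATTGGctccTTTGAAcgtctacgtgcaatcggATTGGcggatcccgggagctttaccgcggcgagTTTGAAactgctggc
Ccnb1, on the minus strand at chr13:100786487-100786616, had 1 CHR motif and 2 CCAAT motifs in the stretch shown.
Ccnb1: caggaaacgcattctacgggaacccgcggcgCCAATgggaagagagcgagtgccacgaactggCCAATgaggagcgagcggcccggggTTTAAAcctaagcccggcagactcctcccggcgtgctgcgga
Whether the motifs go with the direction in TIC was not tested. Ube2c, with a lower ratio, has both motifs, while Nusap1 and Pttg1 have neither. The direction of Pttg1 depended on the scaling, as given below. Bub1, Mad2l1 and Nuf2, with higher ratios, are among the 5 genes whose windows hold no CHR motif, and Mad2l1 and Nuf2 also lack a CCAAT motif.

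Values are log2 ratios of Cy5 over Cy3 after background correction and loess within arrays, so that 1 is a 2-fold difference. Means are given with limma's standard error (SE), and calls needed both a 2-fold change and a p under 0.05 in limma after Benjamini-Hochberg adjustment. The labels name 1 untreated-blood RNA as the reference on every array, so ratios against it leave out the spread between untreated mice, and the TIC and Blood ratios share it. The labels do not say whether the 8 samples of a group came from separate mice, so p-values measure only the spread between these samples, which may be technical. Between 51.1% and 65.8% of probes lay well above background in Cy5 on TIC arrays, between 24.8% and 36.3% on Blood arrays, and between 41% and 51% in the Cy3 reference. TIC arrays were brighter throughout: among genes above background in Cy5 on all 16 arrays, the Cy5 signal net of local background was 23.3-fold higher on TIC than on Blood arrays at the median of 5342 genes. Loess centres the ratios of each array on 0 at every level of intensity, so the shift it removes differs between dim and bright probes. For that reason each direction was checked under 4 other scalings, namely centring on the tested probes, on all spots or on spike-in probes, and the deposited ratios. Under them the median of all genes in TIC moved to 0.45, 1.20, 0.86 and 0.17, against 0.05 with loess. Alb and Afp, which mark hepatoma cells, were above background on all 8 TIC arrays, and summed net signals of 10 hepatoma markers ran from 124540 to 712150 on TIC arrays, against 164 to 361 on Blood arrays. With loess Afp, Alb, Fgb, Foxa2 and Trf of these 10 were called higher in TIC. Apoa1, Ahsg, Hnf4a, Dlk1 and Igf2 were not called, and Ahsg stood at -0.73. The fraction thus held RNA of hepatoma markers, and in bulk samples fewer cells of a type and less RNA per cell cannot be told apart.

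All 35 mitosis genes were well above background in Cy5 on all 8 TIC arrays, as were 10352 of the 12298 genes tested. On a Blood array between 11 and 18 of them were. For 17 of the 35 (48.6%) the Cy5 signal was above background on every TIC array and on no Blood array, against 20.4% of all genes tested. Among these 17, Bub1, Ccnb1, Aurkb, Ttk, Anln, Kif2c and Espl1 passed the filter on dim probes only through Cy5 on TIC arrays. Their detection there was therefore a condition of being tested. Bub1b, Cdk1, Kif11 and Nuf2, also among the 17, passed through Cy5 and Cy3, in each channel on TIC arrays only. Net Cy5 signals of 32 of the 35 were higher on every TIC array than on any Blood array, as were those of 75.5% of all genes tested. For the 11 members above background in Cy5 on all 16 arrays the TIC signal was 22.4-fold that of Blood at the median, where all such genes gave 23.3-fold. The exceptions were Nusap1, Ube2c and Pttg1, whose signals overlapped between the groups.

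**Figure D1:**
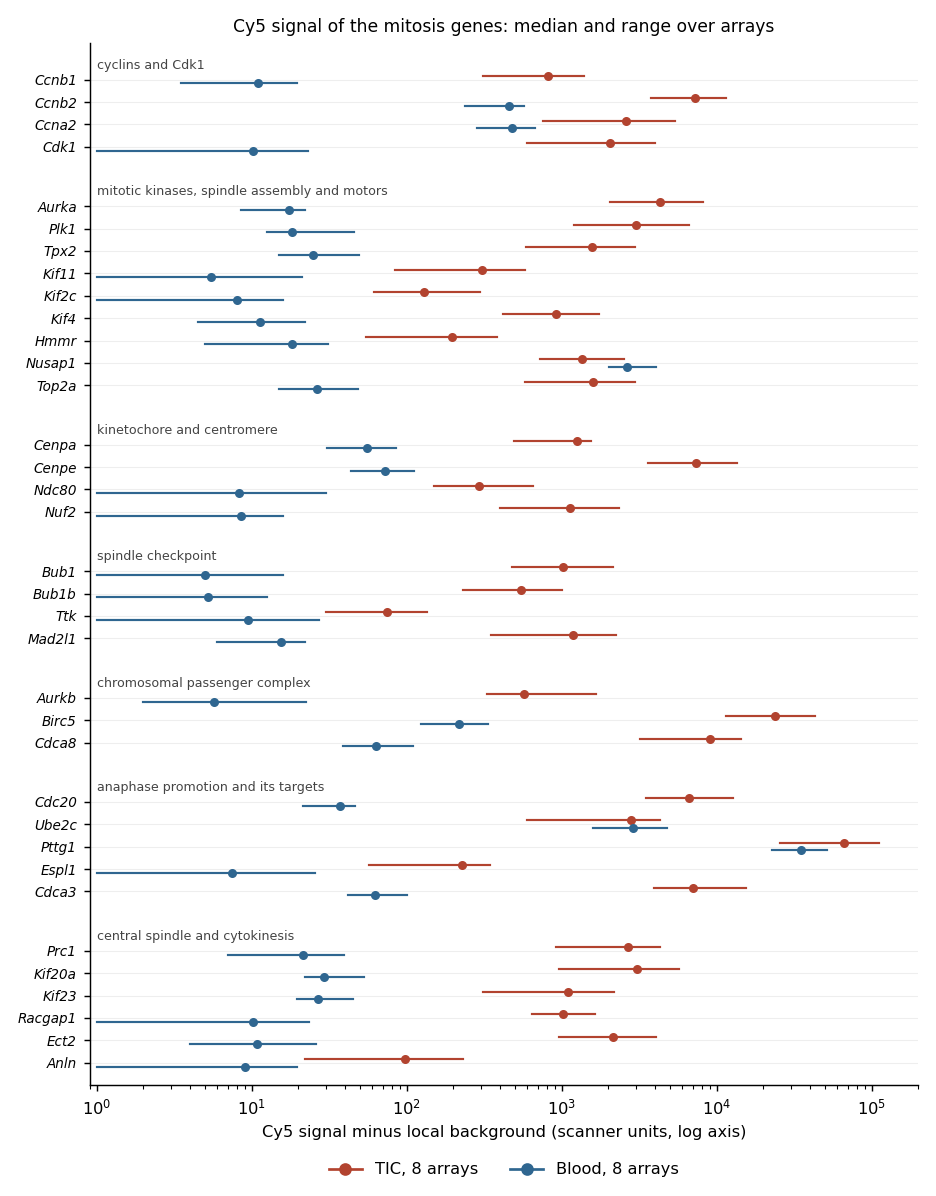
Cy5 signal minus local background of the 35 mitosis genes, on a log axis in scanner units, by role. Points are medians and lines the range over 8 TIC arrays (red) and 8 Blood arrays (blue), values under 1 drawn at 1; the groups overlap for Nusap1, Ube2c and Pttg1, while all genes above background on every array stood 23.3-fold higher in TIC at the median.

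In TIC against untreated blood, 12 of 35 mitosis genes rose (9.31% of all genes tested were called higher), 3 fell (10.1% of all genes were called lower) and 20 were not called. The members' median was 0.85, against 0.05 for all genes. Of the 12 that rose, Bub1, Ccnb1 and Aurkb passed the filter on dim probes only through Cy5 on TIC arrays. Without a TIC signal they would not have been tested, which also holds for their calls in TIC minus Blood. Cdk1 and Nuf2 passed through Cy5 and Cy3, in each channel on TIC arrays only. The 12 that rose were called higher under all 5 scalings: Cenpe, Ect2, Bub1, Cdca8, Cdk1, Nuf2, Ccnb1, Aurkb, Cdca3, Birc5, Mad2l1 and Prc1. Of the 3 that fell, Nusap1 was called lower under all 5, Ube2c was lower under all 5 and called under 4, and Pttg1 turned to positive values under the 3 centrings. Relative to the median of all genes under the same scaling, 23 members stood above it under all 5, 5 stood below it under all 5 (Nusap1, Ube2c, Pttg1, Kif11 and Bub1b), and 7 changed sides. The 3 centrings differ only by a constant per array, so in this measure they give the same values and are not separate checks. A second, dimmer Kif11 probe gave 0.14 with loess, 1.92 in the deposited ratios and 0.04 with centring on all spots.

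The number of members called in TIC depended on the scaling, and so did the share of all genes. With centring on tested probes 23 members rose (34.6% of all genes) and 2 fell (11.4%), on all spots 27 rose (55.7%) and 1 fell (3.31%), and on spike-ins 23 rose (46%) and 2 fell (4.98%). In the deposited ratios 24 rose (25.8%) and 2 fell (21%). With no fold minimum 27 were higher (41.3%) and 5 lower (35.1%) with loess. The members' median stood above that of all genes under each scaling, by 0.81 with loess, 1.09 under the 3 centrings and 1.05 in the deposited ratios.

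**Figure D2:**
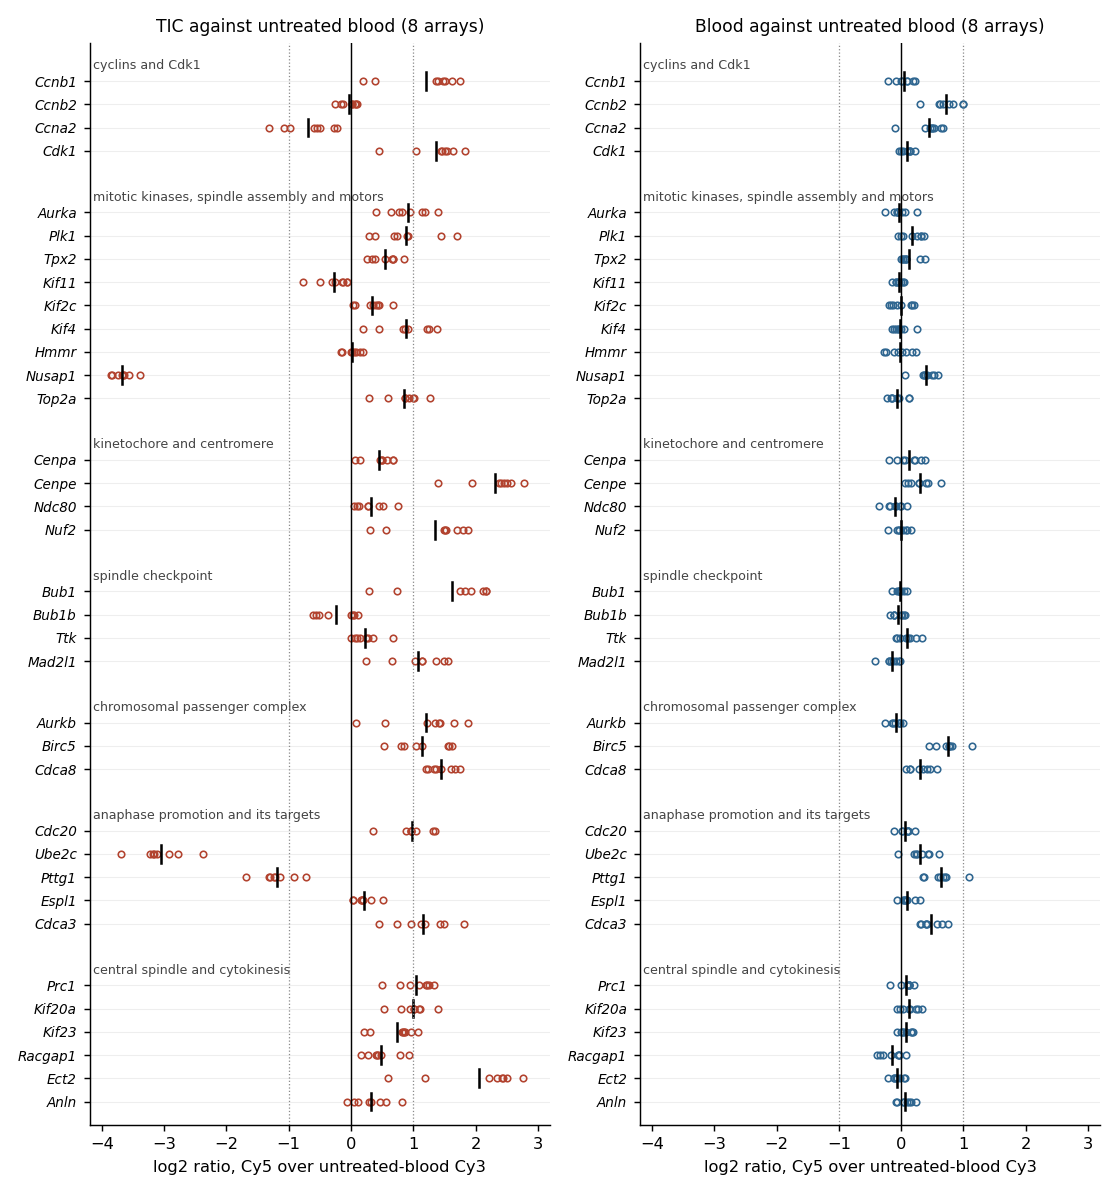
Log2 ratio of Cy5 over untreated-blood Cy3 for each mitosis gene, with TIC at left and Blood at right, 8 arrays each. Open circles are arrays, black bars their mean and dotted lines a 2-fold difference; with loess Nusap1 and Ube2c lie near -4 to -2 in TIC and between -0.05 and 0.60 in Blood, Cenpe reaches 2.78 in TIC, and the position of zero moves with the scaling.

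Among the cyclins and Cdk1, which drive entry into mitosis, the B cyclin Ccnb1 and the kinase Cdk1 rose in TIC. Cdk1 ran from 0.45 over a median of 1.48 to 1.83 in TIC, against -0.03, 0.11 and 0.22 in Blood. The groups did not overlap, and Cdk1 averaged 1.36 ± 0.13 in TIC (SE, 8 arrays, limma adjusted p = 1.18e-05). Ccnb1 averaged 1.21 ± 0.18 in TIC (limma adjusted p = 0.000189), and its lowest TIC array, at 0.20, fell within the Blood range of -0.21 to 0.22. Ccnb2 was not called in TIC at -0.04 ± 0.05, and with centring on tested probes it stood at 1.30. Ccna2, the cyclin that acts in DNA replication and early mitosis, averaged -0.69 ± 0.12 in TIC and was not called; centred on tested probes it stood at 0.54. With loess both had lower ratios on every TIC array than on any Blood array, but centred on tested probes their means were higher in TIC than in Blood, by 1.13 for Ccnb2 and 0.64 for Ccna2.

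The kinases, motors and spindle genes held 9 members, and with loess none rose at 2-fold while Nusap1 fell. Aurka, the kinase of the spindle poles, averaged 0.91 ± 0.10, and Plk1, a kinase that acts throughout mitosis, 0.88 ± 0.15. Top2a, the enzyme that untangles DNA, averaged 0.85 ± 0.09 and the motor Kif4 0.89 ± 0.13. These 4 had positive ratios on all 8 TIC arrays and adjusted p-values between 3.07e-05 and 0.000463 in limma, and each was called higher under the 4 other scalings. The spindle assembly factor Tpx2 stood at 0.55 ± 0.07 and the microtubule-depolymerising motor Kif2c at 0.34 ± 0.07. The spindle motor Kif11, at -0.28 ± 0.08, and Hmmr, which binds microtubules and hyaluronan, at 0.02 ± 0.05, were not called.

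Nusap1, which bundles spindle microtubules near chromosomes, gave the lowest ratio of the 35. Its TIC ratios ran from -3.86 over a median of -3.67 to -3.39, against 0.06, 0.40 and 0.59 in Blood. The 8 TIC arrays were close together and far below every Blood array, with a mean of -3.68 ± 0.06 in TIC (limma adjusted p = 3.61e-11). Net Cy5 signals of Nusap1 ran from 722 over 1347 to 2530 on TIC arrays, against 2011, 2643 and 4063 on Blood arrays, so that the TIC median was 0.51 times that of Blood where the median of all genes above background on every array was 23.3 times. The other scalings gave -2.36, -1.61, -1.95 and -4.04.

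At the kinetochore, where chromosomes meet spindle microtubules, Cenpe and Nuf2 rose. Cenpe, a motor that moves chromosomes to the spindle equator, ran from 1.40 over 2.44 to 2.78 in TIC, against 0.05, 0.29 and 0.63 in Blood. Every TIC array lay above every Blood array, and the mean of 2.31 ± 0.13 in TIC was the highest of the 35 with loess (limma adjusted p = 2.5e-07). A pair of other Cenpe probes gave 0.46 and 0.38 in TIC and were not called. Nuf2, a subunit of the Ndc80 complex that holds microtubules, averaged 1.35 ± 0.18 (limma adjusted p = 0.000101). Its partner Ndc80 averaged 0.32 ± 0.08 and the centromeric histone Cenpa 0.45 ± 0.08, and neither was called with loess.

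Among the 4 checkpoint genes, Bub1 and Mad2l1 rose. On slide 4 alone, which holds samples 897 and 898, Bub1, Mad2l1, Nuf2, Ccnb1, Aurkb and Prc1 were not called, at 0.89 to 1.33. Bub1, a kinase at unattached kinetochores, ran from 0.29 over 1.88 to 2.17 in TIC, against -0.16, -0.03 and 0.09 in Blood. On 6 of the 8 TIC arrays it was above 1.7, and samples 897 and 898 gave 0.29 and 0.74. Its mean was 1.63 ± 0.21 (limma adjusted p = 0.000102). The Cy3 reference of Bub1 was above background on 1 of the 8 TIC arrays, and those of Ccnb1 and Aurkb on 4 of 8, so the size of these ratios rests on a dim reference; the deposited ratios gave 4.82, 3.72 and 3.54 for Bub1, Ccnb1 and Aurkb. Without background correction Ccnb1, Mad2l1 and Aurkb were not called in TIC, at 0.89 to 0.96. Mad2l1, which inhibits Cdc20, averaged 1.08 ± 0.14 (limma adjusted p = 7.5e-05). The checkpoint kinase Ttk, at 0.23 ± 0.07, and Bub1b, at -0.23 ± 0.10, were not called.

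All 3 members of the chromosomal passenger complex rose in TIC; this complex corrects faulty attachments and later acts in cytokinesis. Cdca8 ran from 1.20 over 1.40 to 1.74 in TIC, against 0.08, 0.32 and 0.58 in Blood. The groups were apart, and its 8 TIC arrays spanned little more than 0.5 on the log2 scale around a mean of 1.45 ± 0.07 (limma adjusted p = 5.83e-08). The kinase Aurkb averaged 1.20 ± 0.18 in TIC and Birc5, the survivin gene, 1.14 ± 0.13. Birc5 ran from 0.53 over 1.09 to 1.63 in TIC and from 0.45 over 0.77 to 1.13 in Blood, and these ranges overlapped.

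The anaphase genes went in both directions. Cdca3, a factor for degrading the Wee1 kinase at mitotic entry, rose with 1.15 ± 0.13 in TIC (limma adjusted p = 4.19e-05), but a second probe of it gave -0.12, and the mean over both probes, 0.51, was not called. The activator Cdc20 averaged 0.98 ± 0.10 and separase, Espl1, 0.20 ± 0.06, and neither was called with loess. Ube2c, the ubiquitin-conjugating enzyme of the anaphase-promoting complex, ran from -3.70 over -3.14 to -2.37 in TIC, against -0.05, 0.29 and 0.60 in Blood. All TIC arrays lay below all Blood arrays, and the mean was -3.06 ± 0.12 in TIC (limma adjusted p = 1.27e-08). Under the scalings in the order named above Ube2c stood at -1.72, -0.96, -1.31 and -3.40. Its net Cy5 signal had a median of 2802 on TIC arrays and 2878 on Blood arrays.

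Pttg1, or securin, which holds separase inactive until anaphase, ran from -1.69 over -1.22 to -0.72 in TIC, against 0.35, 0.65 and 1.09 in Blood. The groups did not overlap and the mean was -1.19 ± 0.09 in TIC (limma adjusted p = 2.2e-06). Its direction depended on the scaling, at 0.32, 1.07 and 0.73 with centring on tested probes, all spots and spike-ins, and -0.98 in the deposited ratios. Relative to all genes it stood at -1.24 with loess and -0.13 with centring on tested probes. The TIC median of its net Cy5 signal was 1.89 times that of Blood.

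Of the 6 central spindle and cytokinesis genes, Ect2 and Prc1 rose. Ect2, the exchange factor that activates RhoA at the cell equator, ran from 0.60 over 2.39 to 2.76 in TIC, against -0.21, -0.07 and 0.06 in Blood. Its 2 lowest TIC arrays were again samples 897 and 898, and all 8 were above every Blood array, with a mean of 2.06 ± 0.23 (limma adjusted p = 2.84e-05). Another Ect2 probe gave 0.13. Prc1, which bundles microtubules of the central spindle, averaged 1.04 ± 0.09 (limma adjusted p = 5.65e-06) and stood at 0.995 without TIC sample 896, just under the fold minimum. The motors Kif20a and Kif23 averaged 0.99 ± 0.08 and 0.74 ± 0.10, Racgap1, the partner of Ect2 and Kif23, 0.49 ± 0.08, and Anln, a scaffold of the contractile ring, 0.32 ± 0.09. None of these 4 was called with loess.

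**Figure D3:**
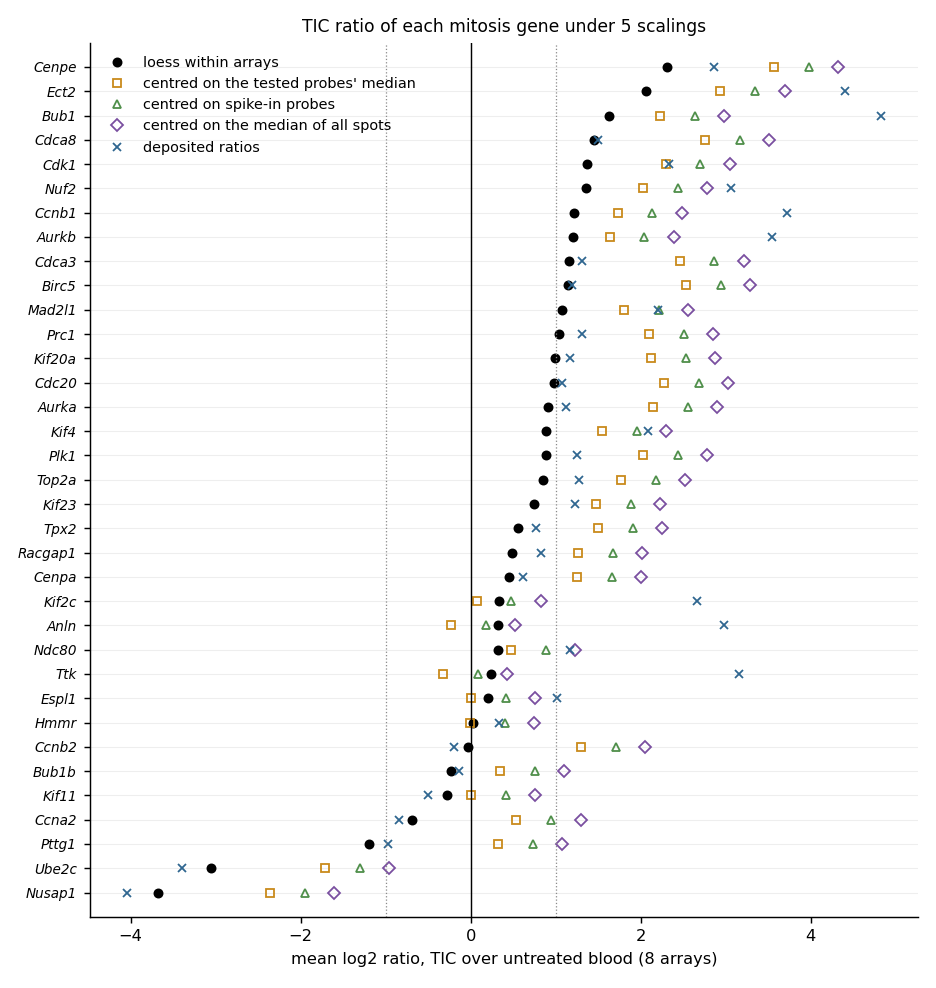
Mean log2 ratio of TIC over untreated blood for each mitosis gene under 5 scalings, ordered by the loess value, with dotted lines at a 2-fold difference. Nusap1 and Ube2c lie below 0 under all 5 scalings, Pttg1, Ccna2, Ccnb2, Bub1b, Kif11, Anln, Ttk and Hmmr have values on both sides of 0, and the 12 genes called higher with loess stay above 1 throughout.

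With loess, the lower ratios of Nusap1, Ube2c and Pttg1 were accompanied by lower ratios of red cell genes. They were not particular to red cells, as platelet markers and most B cell markers, given under other observations, were lower in TIC too. Of 19 tested erythroid markers 16 fell in TIC with loess, 16 to 19 fell under the other scalings, and none rose; their median was -4.57 with loess, against 0.05 for all genes. The band 3 gene Slc4a1 averaged -6.36 ± 0.10 and the heme synthesis gene Alas2 -4.32 ± 0.15. Net signals summed over the erythroid list ran from 141880 to 440010 on TIC arrays, against 566650 to 1476700 on Blood arrays. Epb42, Klf1 and Rhag were above background on no TIC array, and Klf1 was above it on no Blood array either. In Blood the erythroid median was 0.43 with loess, and 0 of 19 were called; with centring on all spots or spike-ins this median was at or just below 0. With loess, red cell genes did not move together across TIC arrays. On samples 897 and 898 the erythroid medians were -3.05 and -4.03, against -5.55 to -4.81 on the other 6, while Alas2 had its lowest ratio, -5.06, on sample 897. This depended on the scaling. With centring on all spots Alas2 and Slc4a1 both had their highest TIC ratios, -1.21 and -3.44, on sample 897. Of the 35 mitosis genes 21 had their lowest TIC ratio on sample 897. The part of red cell RNA in the mitosis genes' ratios was not tested.

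**Figure D4:**
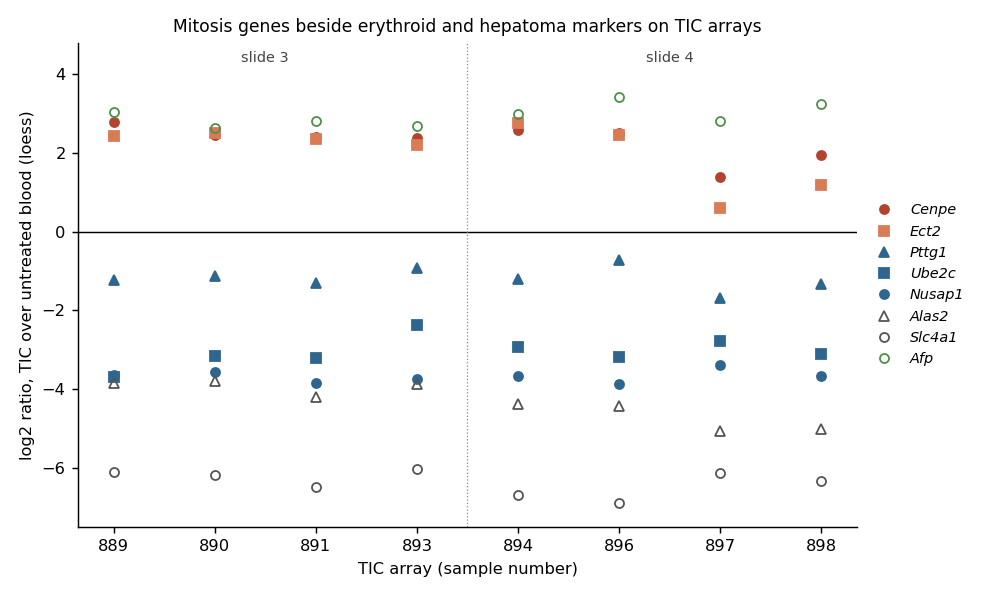
Log2 ratio of TIC over untreated blood (loess) on each TIC array for 5 mitosis genes (filled) and, with open symbols, the erythroid markers Alas2 and Slc4a1 and the hepatoma marker Afp. Nusap1 stays between -3.86 and -3.39 on all 8 arrays, while Cenpe and Ect2 are nearer to 0 on samples 897 and 898 than on the other 6; Pttg1 turns positive in the mean with the centrings.

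The reference channel itself differed between the slides, although its label is the same on all 16 arrays. Bub1b, Cdk1, Kif11 and Nuf2 were above background in Cy3 on all 8 TIC slides' arrays and on none of the Blood slides' arrays (11.4% of the members, 3.6% of all genes tested); no member showed the reverse. The median Cy3 signal was higher on TIC slides for 33 of 35 members (94.3%, against 91% of all genes), over 4-fold so for 11 (31.4%, against 8.18% of all genes), and for Birc5 it was 1644 on TIC slides and 176 on Blood slides. Over all genes above background in both channels on every array the Cy3 signal was 1.41-fold higher on TIC slides at the median, and 1.58-fold for the 11 such members. The Cy3 signal of Alb had a median of 7556 on TIC slides and 12.8 on Blood slides, where its Cy5 signal was 154220 in TIC and 8.25 in Blood. The Cy3 signal of Nusap1 was 2866 on TIC slides and 2638 on Blood slides. Ratios divide by this channel, and the part of its shift in the members' ratios was not tested.

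In Blood against untreated blood, 0 of 35 mitosis genes were called at 2-fold, where 0.748% of all genes were. At an adjusted p alone, 11 were higher and 2 lower (20.8% and 29% of all genes tested). Birc5 gave the highest mean at 0.75 ± 0.06, followed by Ccnb2 at 0.72 ± 0.06, Pttg1 at 0.64 ± 0.06, Cdca3 at 0.48 ± 0.05, Ccna2 at 0.45 ± 0.07 and Nusap1 at 0.40 ± 0.05. With the exception of Ccna2 in sample 889, these 6 were positive on all 8 Blood arrays with loess. With centring on all spots Birc5 stood at 0.13, Ccnb2 at 0.06 and Pttg1 at 0.29, and Ccna2 and Nusap1 turned negative, at -0.21 and -0.16. In the deposited ratios Birc5 at 1.09 and Cdca3 at 1.097 were called higher and Ndc80 at -1.05 lower. Those calls stood beside 2.65% of all genes higher and 5.12% lower. Under the centrings no member was called in Blood, where 0.122% of all genes were higher and 4.62% lower on tested probes, 0.0813% and 7.19% on all spots, and 0.0813% and 7.53% on spike-ins. The 17 members that were above background in Cy5 on no Blood array gave Blood ratios that rest on dim signals.

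The direct comparison asks whether the ratios of the tumour fraction and of blood differ. TIC minus Blood called 9 members higher (12.1% of all genes tested) and 4 lower (11.8% of all genes). The ratios of the groups did not overlap for 20 of 35 members (57.1%), against 42.1% of all genes. The higher ones were Ect2 at 2.12 ± 0.24, Cenpe at 2.01 ± 0.15, Bub1 at 1.65 ± 0.23, Nuf2, Aurkb, Cdk1, Mad2l1, Ccnb1 and Cdca8; all but Cdca8 were called higher under all 5 scalings, and Cdca8 stood at 0.82 in the deposited ratios. With the mean over its probes Cenpe stood at 0.96 and was not called. The lower ones were Nusap1 at -4.08 ± 0.08 (limma adjusted p = 7.55e-18), Ube2c at -3.37 ± 0.14 (limma adjusted p = 3.19e-13), Pttg1 at -1.83 ± 0.12 and Ccna2 at -1.14 ± 0.15. Only Nusap1 of these 4 was called lower under all 5; Ube2c was lower under all 5, Pttg1 stood at -0.08 with centring on tested probes and 0.78 with centring on all spots, and Ccna2 was positive under the 3 centrings. With centring on tested probes 23 members were called higher (41.4% of all genes) and 2 lower (15.3%), on all spots 26 higher (60%) and 1 lower (2.72%), on spike-ins 24 higher (52.9%) and 2 lower (4.62%), and in the deposited ratios 15 higher (34.4%) and 5 lower (22.6%). With no fold minimum 25 were higher (42.4%) and 6 lower (32.5%) with loess. Birc5 differed by 0.39 ± 0.15 and was not called with loess, and it was called higher at 2.29, 3.15 and 2.82 with centring on tested probes, all spots and spike-ins.

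For 17 members no Blood array was above background in Cy5, so the difference in the Cy5 channel is a lower bound. It was at least 6.62-fold higher in TIC for Aurka, at least 4.82-fold for Ect2, 4.76-fold for Cdk1, 3.75-fold for Bub1 and 3.58-fold for Nuf2, and between 1.2-fold and 2.73-fold for the other 12. Bub1, Ccnb1, Aurkb, Ttk, Anln, Kif2c and Espl1 were tested only because of their Cy5 signal on TIC arrays. For them a higher TIC signal was thus part of being tested. Bub1b, Cdk1, Kif11 and Nuf2 were above background on TIC arrays only, in Cy3 as in Cy5. The loess ratios of Aurka differed by 0.94 (limma adjusted p = 1.37e-06), which was under the fold minimum and not called. Each bound was taken from the Cy5 channel after loess and Aquantile normalisation, and without dye swaps dye bias is part of it. With Cy5 signals alone, quantile normalised, 22 members were called higher (21.3% of all genes) and 4 lower (15.7% of all genes). The lower ones were Nusap1 at -4.20, Ube2c at -3.78, Ccna2 at -1.56 and Pttg1 at -1.47. Kif11 and Bub1b, with ratios of -0.24 and -0.18, stood at 1.003 and 1.46 in this fit. Birc5 stood at 2.81 and Aurka at 3.05.

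**Figure D5:**
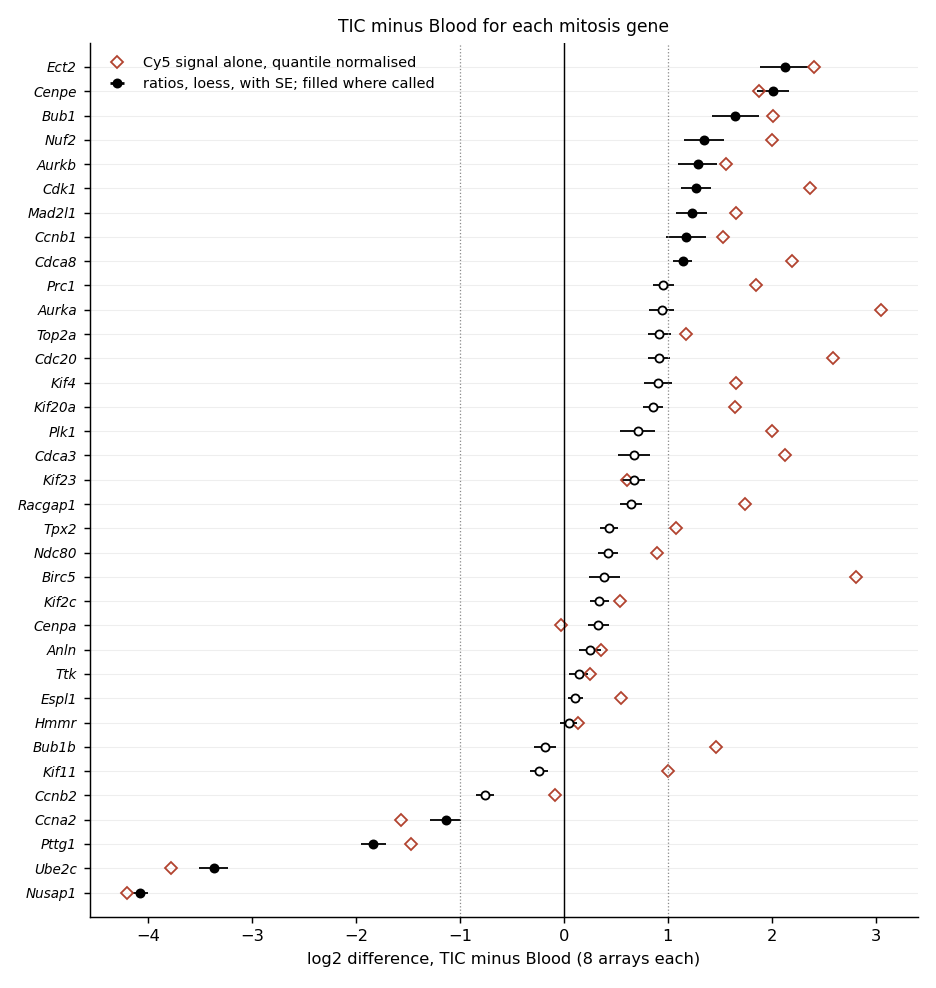
TIC minus Blood for each mitosis gene: circles give the difference of log2 ratios with loess and its SE, filled where called, and diamonds the log2 difference in Cy5 signal alone after quantile normalisation. Nusap1, Ube2c, Pttg1 and Ccna2 lie below -1 in both, under the centrings Pttg1 and Ccna2 lie above -1, as does Ube2c with centring on all spots, and Birc5 stands at 0.39 with ratios and 2.81 with Cy5 alone.

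Other genes of mitosis outside the 36 were taken as 7 lists of 136 genes, of which 118 were tested. In TIC 24 of them rose (9.31% of all genes were called higher), 6 fell (10.1% called lower) and 88 passed neither way, the median being 0.43; with centring on tested probes 60 rose (34.6% of all genes) and 1 fell (11.4%). In Blood 0 were called with loess, and with centring on tested probes 0 rose and 7 fell, where 4.62% of all genes were called lower. The spindle regulator Psrc1 gave the highest ratio, 3.54 ± 0.16 in TIC. The Cdk-binding proteins Cks1b and Cks2 averaged 2.44 ± 0.11 and 1.89 ± 0.12, the cytokinesis gene Shcbp1 2.03 ± 0.24, the cohesin protector Sgo1 1.89 ± 0.22, the cohesin subunit Rad21 1.83 ± 0.08 and the microtubule destabiliser Stmn1 1.56 ± 0.06. Cdc25b, a phosphatase that activates Cdk1, fell to -5.60 ± 0.12 in TIC (limma adjusted p = 2.01e-10) and stood at -4.18 and -3.43 with centring on tested probes and on all spots. The anaphase-promoting complex, the ubiquitin ligase that Ube2c serves, had 2 of 16 tested genes higher and 2 lower; the lower ones were Ube2s, its second conjugating enzyme, at -1.65 ± 0.09, and the activator Fzr1 at -1.53 ± 0.07, and both turned to 0.50 and 0.46 with centring on all spots. Of 15 replication genes 7 rose in TIC and 0 fell, among them the helicase subunit Mcm6 at 1.81 ± 0.05 and the nucleotide enzyme Tyms at 1.80 ± 0.14.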

How the data were processed

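The authors deposited, per the file headers, median spot and local-background intensities of both channels and a log10 ratio of Cy5 over Cy3, from Agilent Feature Extraction 10.5.1.1, whereas version 9.1.3.1 stands in the submitters' processing notes. The deposited value table of the series differed from these log10 ratios by 0 at most. From the deposited intensities, limma computed log2 ratios after normexp background correction (offset 50) and loess within arrays (version 3.58.1, R 4.3.3, data.table version 1.17.8). Control spots had weight 0, and 87 to 153 spots per array with outlier flags were left out. The array has 45018 features and, after averaging spots, 41174 probes, of which 23374 had 1 symbol through RefSeq (GRCm38.p6), 0 several and 17800 none. The filter on dim probes asked for a signal well above background in Cy5 on 4 or more of a group's 8 arrays, or in Cy3 on 8 or more of the 16; the 26494 probes left were tested with lmFit and eBayes. Each group was fitted on its own 8 arrays and TIC minus Blood on all 16; p-values were adjusted over all probes. The number of arrays, 8 per group, limits the precision. In the bounds, the dim side of each array was the probe's own signal or, if higher, the lowest that any probe well above background had. Spike-in centring assumes that designed spike ratios average 0, which is not given in the sources used here. The fit was tested on simulated data. Promoter motifs were searched with Python 3.11.15 and figures drawn with matplotlib 3.10.9. Members and gene lists were chosen with earlier results of these data known. 1 marker named in the rule is not reported here. All 36 members are accounted for; from the other lists up to 4 called genes of largest change per direction and comparison could be named, beside red cell and hepatoma markers. Alternatives covered the background correction, scaling, fold minimum, dim-probe filter, probe choice, slides, sample numbers and single arrays.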

Additional observations from a re-analysis of the deposited data

Results flagged for a closer look

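In 4 of 70 groups of 8 ratios, 1 gene in 1 group each, a single array stood apart from the other 7 by Dixon's test, and chance alone gives about 1 in 20. Ccna2 was at -0.10 in Blood sample 889, below the other Blood arrays. Nusap1 was at 0.063 in Blood sample 891, the lowest of its group. Mad2l1 was at -0.42 in Blood sample 898 and Cdc20 at 0.36 in TIC sample 893, each the lowest of its group.

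The TIC and Blood ratios differed for 13 of the 35 genes at a limma adjusted p under 0.05 and at least 2-fold. By the same rule 23.9% of all genes tested were called. TIC was higher for Ect2 by 2.12, Cenpe by 2.01, Bub1 by 1.65, Nuf2 by 1.35, Aurkb by 1.29, Cdk1 by 1.27, Mad2l1 by 1.23, Ccnb1 by 1.17 and Cdca8 by 1.14 on the log2 scale. The difference was -4.08 for Nusap1, -3.37 for Ube2c, -1.83 for Pttg1 and -1.14 for Ccna2. Under the centrings the difference of Pttg1 moved between -0.08 and 0.78 and that of Ccna2 between 0.64 and 1.50.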

How the results depend on the processing

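For TIC, 2390 genes (12 members higher, 3 lower) were called with loess, against 7260 (27 and 1) with centring on all spots, 6274 (23 and 2) on spike-ins, 5665 (23 and 2) on tested probes, which was chosen after seeing the data, and 5759 (24 and 2) with deposited ratios. Of the calls 47.9% were higher with loess, against 94.4%, 90.2%, 75.2% and 55.1%. For TIC minus Blood, 2935 genes (9 and 4) were called, against 7711 (26 and 1), 7075 (24 and 2), 6980 (23 and 2) and 7006 (15 and 5), and 50.6%, against 95.7%, 92%, 73% and 60.4%, were higher. For Blood, 92 genes (67.4% higher) were called, against 894 (1.12%), 936 (1.07%), 583 (2.57%) and 956 (34.1%), with 0 members except 2 higher and 1 lower with deposited ratios.

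A member changed sign, with a call on at least 1 side, as follows. In TIC with centring on all spots, Ccnb2 stood at 2.05, Ccna2 at 1.29, Bub1b at 1.097 and Pttg1 at 1.07; on spike-ins Ccnb2 stood at 1.70 and Pttg1 at 0.73, and on tested probes they stood at 1.30 and 0.32. In TIC minus Blood with centring on all spots, Ccnb2 stood at 1.99, Ccna2 at 1.50, Bub1b at 1.07 and Pttg1 at 0.78; on spike-ins Ccnb2 stood at 1.66, Ccna2 at 1.18 and Pttg1 at 0.45, and on tested probes Ccnb2 at 1.13 and Ccna2 at 0.64. With Cy5 alone, which called 4545 genes (22 and 4), Kif11 stood at 1.003 and Bub1b at 1.46. The cause was not tested.

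Background subtraction with a floor called 404 genes in Blood, 4368 (19 higher) in TIC and 5308 (16 higher) in the difference, and no correction called 53 in Blood. Without a fold minimum the counts were 6128 (11 and 2), 9398 (27 and 5) and 9211 (25 and 6). Slide 1 alone called 61 genes in Blood and slide 2 alone 152. In TIC, slide 3 alone left the result of 32 of 35 members the same, while 2 lost and 1 gained a call. Slide 4 alone left 26 the same, while 6 lost and 3 gained a call. The 3 lower calls were kept on each. Without background correction Ccnb1, Mad2l1 and Aurkb were not called in TIC, at 0.89 to 0.96, and Cdc20 (1.03) and Kif20a (1.006) were; in the difference Ccnb1 (0.96), Ccna2 (-0.99), Mad2l1 (0.99) and Aurkb (0.91) were not called and Prc1 (1.004) was. With the mean over a gene's probes Cdca3 (0.51) was not called in TIC nor Cenpe (0.96) in the difference. Deviations from the group means of same-numbered arrays correlated at -0.18 to 0.22, best with their own number in 2 of 8, so numbers were not taken as pairs. Sample number as a replicate block left the difference at 2935 genes (9 and 4), and with Cy5 alone the block left 4545 (22 and 4), Kif11 at 1.003 and Bub1b at 1.46. Slide as a random block and both dim-probe filters changed no member's call.

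Leaving out single arrays gave 75 to 106 genes in Blood, 2312 to 2625 in TIC (11 to 13 members higher, 3 lower) and 2847 to 3193 in the difference (9 to 12 higher, 4 lower). In TIC, Cdc20 was called without sample 893 (1.07), Kif20a without 897 (1.05) or 898 (1.02), and Prc1 was not called without 896 (0.995). In the difference, Aurka (1.01) and Cdc20 (1.003) were called without TIC 893, and Kif4 (1.01), Prc1 (1.04) and Top2a, at the fold minimum, without TIC 897. Signals near background limit the Blood values of 17 members.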

Other observations

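Markers of other blood cells moved in their own ways in TIC against untreated blood. Platelet markers fell for 8 of 8 genes with loess and under the 4 other scalings, with a loess median of -4.89. B cell markers fell for 8 of 9 with loess and for 6 to 9 under the other scalings; Cd79b, a subunit of the B cell receptor, averaged -5.60 ± 0.10 in TIC and -1.54 ± 0.11 in Blood. Monocyte and macrophage markers rose for 6 of 10 with loess, where 9.31% of all genes were called higher, and for 7 to 9 under the other scalings; Lyz2, the macrophage lysozyme gene, fell with loess at -1.69 ± 0.15 and stood at 0.61 with centring on all spots. The T cell markers gave 0 of 10 calls with loess and 7 of 10 higher with centring on all spots, where 55.7% of all genes were called higher. Neutrophil markers fell for 4 of 8 in TIC with loess and for 0 with centring on all spots, where 1 rose; in Blood 4 of 8 rose with loess and 1 of 8 with that centring. Of 9 fibroblast and endothelial markers 2 rose in TIC with loess and 5 with centring on all spots, near the share of all genes under that centring. Their part in the mitosis genes' ratios was not tested.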
